A study of Mus musculus with 9 samples.

Results

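The cells described here are noncycling thymocytes of the CD8 single-positive (CD8 SP) gate, compared between I173A mice and wild-type (WT) mice over all genes. In I173A mice CD3ε, which passes signals of the T cell receptor (TCR) into the cell, carries the I173A substitution; in WT mice it does not. Both groups were thymocytes of adult female mice, sorted as CD4-CD8+ cells and sequenced together in 1 single-cell RNA library, so that the genotype of a cell was read from a hashtag, an antibody that carries a DNA barcode. Strain, number of mice and any pooling of animals are not given in the sources used here. Each genotype is therefore 1 sample. No test between genotypes was possible; intervals are 95% intervals that cover counting error only, and higher or lower is said of these 2 samples only.

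A barcode entered with at least 500 genes, at most 10% mitochondrial UMIs (unique molecular identifiers, which count RNA molecules) and 1 hashtag that reached 10 counts and stood 4 times above every other hashtag. Cells were then dropped when their summed UMIs of Mki67, Top2a, Cdk1, Birc5, Ube2c and Ccnb2, 6 genes of G2 phase and mitosis, reached 5. This left 2609 I173A cells and 2503 WT cells, 5112 in all, of the 26990 barcodes in the 3 RNA libraries of the series. The rule dropped 263 of 2872 I173A cells (9.16%) and 514 of 3017 WT cells (17%), and these held 19.5% of the I173A UMIs and 37.5% of the WT UMIs. The cells were thus chosen by measured values, and the 6 genes are no result within them. Just inside the threshold, at a sum of 3 or 4, stood 31 I173A and 48 WT cells, with a median of 16 UMIs of 6 S phase genes in each genotype. Just outside it, at a sum of 5 or 6, stood 17 I173A and 32 WT cells, with medians of 18 such UMIs in I173A and 20.5 in WT cells.

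A thymocyte whose TCR binds self peptide on MHC class I can become a CD8 SP cell. Such a cell passes through a semimature stage marked by Ccr9, a chemokine receptor, and Cd69, an early activation protein, and then turns on Klf2 and S1pr1, a transcription factor and a receptor that govern exit from the thymus. TCR binding induces the nuclear receptor genes Nr4a1 to Nr4a3 and the Egr transcription factors, and lastingly raises Cd5 and Cd6, which tune the signal. Resting lymphocytes can burn fatty acids in mitochondria: carnitine palmitoyltransferase 1a, made from Cpt1a, links them to carnitine at the outer membrane, the carrier made from Slc25a20 takes them across the inner membrane, and beta-oxidation enzymes shorten them. By its title, the series asks about stronger TCR signals and about lipid metabolism in thymocytes with this substitution.

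The genotype of every cell rests on these hashtag barcodes of 15 bases, written whole in capitals because every base is read. They were taken from the deposited feature tables.
Hashtag 6, I173A: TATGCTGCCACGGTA
Hashtag 4, WT: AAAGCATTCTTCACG
Each differs from the nearest other hashtag at 11 positions or more. Another barcode, hashtag 5, has no genotype in the labels, and its cells entered no comparison. Barcodes with several hashtags were 5.43% of the library and were left out, while pairs of cells of the same genotype could not be recognised.

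Depth was similar, with 14187614 UMIs in I173A cells and 14083874 in WT cells and medians of 5058 and 5296 UMIs per cell. The label of the gate held in both genotypes. Cd8a was at 1156 CPM (UMIs per 1000000 UMIs of all genes) in I173A and 1322 CPM in WT cells, and Nkg7, a granule protein gene of the CD8 lineage, at 747 and 726 CPM. Cd4 had 2 UMIs in each genotype, and Zbtb7b, which directs cells to the CD4 lineage, had 0 UMIs in both. Cd40lg, another CD4 SP marker, had 23 UMIs in I173A and 14 in WT cells, of which 10 cells held 73.9% and 85.7%. Of the gamma delta T cell markers, Trdc had 58 UMIs in I173A and 44 in WT cells, and Sox13 had 4 and 2. The 5 markers of immature thymocytes (Rag1, Rag2, Ptcra, Dntt and Arpp21) summed to 30.9 CPM in I173A and 27.5 CPM in WT cells. The erythroid markers Hba-a1 and Hbb-bs were at 0 in both genotypes. Of the epithelial markers Krt5 and Krt8 were at 0 in both, and Epcam had 80 UMIs in I173A and 89 in WT cells. Of the natural killer markers Ncr1 was at 0 in both, Fcer1g had 18 UMIs in I173A and 8 in WT cells, and Klrb1c 7 and 3. Between libraries, 124 barcodes of the CD8 SP library also occurred in the CD4 SP library and 109 in the DP (double-positive) library; among noncycling cells these were 44 in each case.

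With cycling cells left out, the difference between the genotypes was small for most genes. Of 8888 genes measured (those whose I173A and WT levels averaged 5 CPM or more), 54 were at least 1.5-fold higher in I173A (0.608%) and 30 at least 1.5-fold lower (0.338%). The middle 95% of genes had ratios of I173A to WT between 0.80 and 1.31, the median log2 ratio was 0.02, and 57.8% of genes were higher in I173A at any fold. Most genes past the fold were low: 28 of the 54 and 19 of the 30 had a mean under 10 CPM, and only 8 in each direction reached 20 CPM. In the whole gate, with cycling cells kept, 127 of 9123 genes (1.39%) were at least 1.5-fold higher and 441 (4.83%) at least 1.5-fold lower. Of the 441, 239 were still measured in noncycling cells, 22 were still 1.5-fold lower there and 52 were on the other side of 1. Of the 127, all were still measured, 39 were still past the fold and 0 had changed side. Among the 441 were 52 genes of the S phase and G2/M lists.

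**Figure D1:**
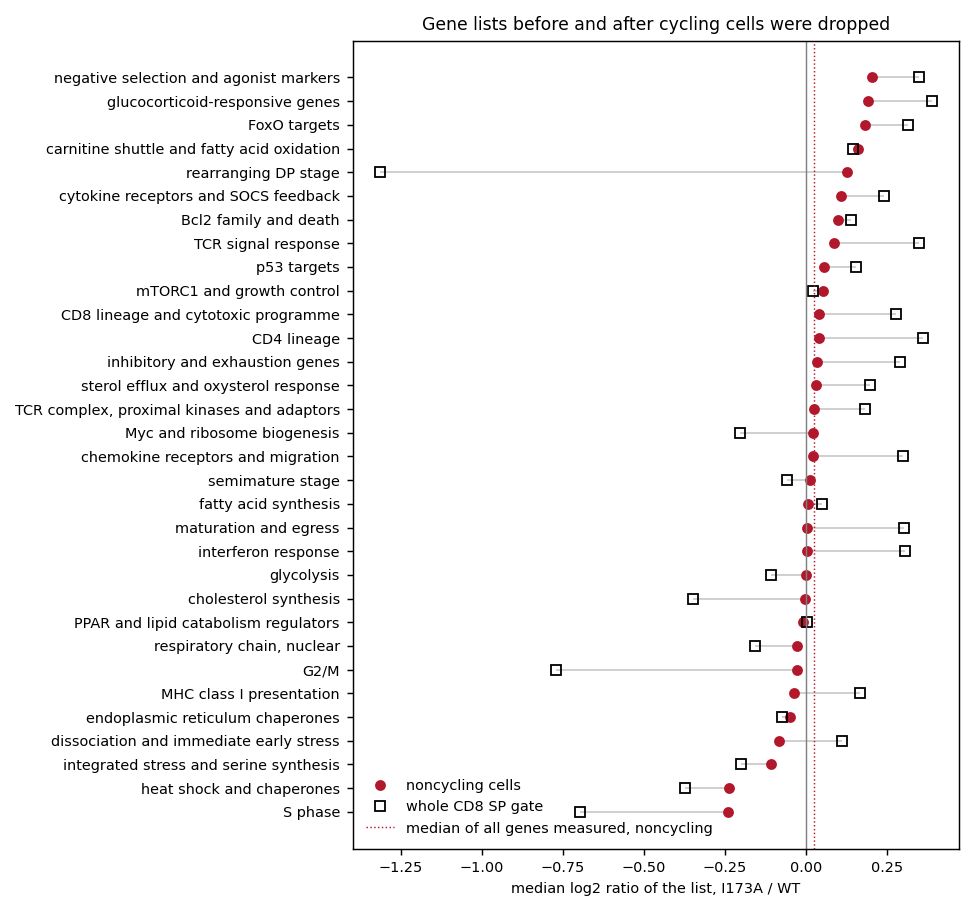
Median log2 ratio of I173A to WT for each gene list (x axis), leaving out MHC class II and the lists of other cell types, in noncycling CD8 SP cells (filled circles) and in the whole gate (open squares); the dotted line is the median of all genes measured. After the cycling cells were dropped, 2 of these lists lay below -0.2 (S phase, heat shock and chaperones) and 1 above 0.2, and lists such as maturation and egress moved to 0.00.

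The gene with the highest ratio whose UMIs were spread over many cells was Cpt1a (ENSMUSG00000024900; GRCm38 chromosome 19, 3322326 to 3385735). It was at 27.2 CPM in I173A cells (386 UMIs) and at 7.53 CPM in WT cells (106 UMIs), a ratio of 3.61 (2.91 to 4.53). The 10 cells with most Cpt1a UMIs held 7.51% of the I173A total and 16.0% of the WT total. Slc25a20, the carrier that works next to it, was at 31.6 CPM in I173A and 21.4 CPM in WT cells, a ratio of 1.48 (1.27 to 1.72). Cpt2, which releases the fatty acid from carnitine inside the mitochondrion, was at 10.6 and 8.80 CPM, a ratio of 1.20 whose interval (0.94 to 1.54) includes 1.

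The enzymes downstream of the shuttle leaned the same way by much less. Of 22 measured genes of the carnitine shuttle and fatty acid oxidation, 19 were higher in I173A, with a median log2 ratio of 0.16 against 0.02 over all genes, and Cpt1a was the only member past 1.5-fold. Acadl, the long-chain acyl-CoA dehydrogenase, was at 47.2 CPM in I173A and 37.1 CPM in WT cells, a ratio of 1.27 (1.13 to 1.43). Acads, the short-chain dehydrogenase, stood at a ratio of 1.23, Hadh, a later enzyme of the cycle, at 1.21, and Acadvl, the very-long-chain dehydrogenase, at 1.19. The medium-chain dehydrogenase gene Acadm had 37.7 CPM in I173A and 37.8 CPM in WT cells. Eci1, an isomerase for unsaturated fatty acids, was the lowest member, at 16.7 CPM in I173A and 20.2 CPM in WT cells (0.83, 0.69 to 0.99), but above 1 (1.04) with equal weight of early, middle and late cells. Without cells that bear S phase genes the median of the list was 0.16, and 18 of 22 members were higher.

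The other lipid lists had medians closer to that of all genes. Of 17 measured regulators of lipid catabolism, 8 were higher and 9 lower, with a median of -0.01; Ppard, a nuclear receptor that induces Cpt1a in muscle, was at 8.39 CPM in I173A and 9.44 CPM in WT cells (ratio 0.89, 0.69 to 1.15), and Pnpla2, the triglyceride lipase, at 49.5 and 41.6 CPM (1.19, 1.06 to 1.33). Fatty acid synthesis had a median of 0.01, with 8 of 15 members higher. Fasn, the fatty acid synthase, was at 31.9 CPM in I173A and 32.7 CPM in WT cells, and Srebf1, the transcription factor of this pathway, at 45.3 and 45.1 CPM. Mlxip and Elovl6, a glucose-sensing factor and a fatty acid elongase, stood above the others with ratios of 1.42 (1.19 to 1.69) and 1.34 (1.06 to 1.70). Cholesterol synthesis had a median of 0.00 in noncycling cells and of -0.35 in the whole gate. Its lowest member Idi1, the isopentenyl diphosphate isomerase, was at 6.63 CPM in I173A and 10.2 CPM in WT cells (ratio 0.65, 0.49 to 0.85), while Hmgcs1 was at 25.8 and 23.4 CPM (1.10, 0.95 to 1.29) and Srebf2 at 32.3 and 32.0 CPM. Without cells that bear S phase genes, 0 of 19 measured cholesterol synthesis genes were past the fold. Of 13 measured genes of sterol efflux and the oxysterol response 9 were higher, with a median of 0.03, and Osbpl5, an oxysterol-binding protein gene, was past the fold at 7.19 CPM in I173A and 4.40 CPM in WT cells (ratio 1.63, 1.18 to 2.28). Without the same cells 0 of 13 members of this list were past the fold. At the lower end of this list, Abcg1, which exports cholesterol, was at 63.1 CPM in I173A and 75.6 CPM in WT cells (ratio 0.83, 0.76 to 0.91; 1.01 in the whole gate), and Abca1 at 27.1 and 30.2 CPM (0.89, 0.78 to 1.03). The glycolysis list had a median of 0.00, with 9 of 19 members higher, and the nuclear genes of the respiratory chain one of -0.03, with 9 of 30 higher.

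Tsc22d3 and Ddit4 were among the 12 highest genes by ratio. Tsc22d3 (ENSMUSG00000031431; chromosome X, 140539528 to 140600522) encodes a leucine zipper protein induced by glucocorticoids and by FoxO factors. It was at 240.4 CPM in I173A cells and 111 CPM in WT cells, a ratio of 2.16 (2.03 to 2.29). Ddit4 (ENSMUSG00000020108; chromosome 10, 59949675 to 59951770), a stress-induced inhibitor of mTORC1, was at 337 CPM in I173A and 177 CPM in WT cells, a ratio of 1.90 (1.81 to 1.99). Of 15 measured glucocorticoid-responsive genes 12 were higher (median log2 ratio 0.19), and both genes above were the only members past the fold. Fkbp5, a chaperone of the glucocorticoid receptor and a standard readout of it, was at 44.8 CPM in I173A and 32.1 CPM in WT cells, a ratio of 1.40 (1.24 to 1.58), but in the whole gate its ratio was 0.78. Pik3ip1, an inhibitor of PI3 kinase, was at 101 and 75.3 CPM (1.34, 1.24 to 1.45), Txnip, which limits glucose uptake, stood at a ratio of 1.36, and Nr3c1, the receptor itself, at 1.08. Dusp1, a phosphatase induced by the hormone in many cells, was at 19.7 CPM in I173A and 22.6 CPM in WT cells (0.87, 0.74 to 1.03).

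FoxO targets, which overlap with this list, gave 13 of 18 members higher, where 57.8% of all genes were, and a median of 0.18, with 0 members past the fold. Pik3ip1, Pink1 (ratio 1.21, 1.11 to 1.32) and Il7r (1.14, 1.08 to 1.20) were above 1. Klf2 was at 715 CPM in I173A and 656 CPM in WT cells (1.09, 1.06 to 1.12), whereas S1pr1 was at 139 and 146 CPM (0.95, 0.89 to 1.01) and Ccr7 at 562 and 554 CPM (1.01, 0.98 to 1.05). Of the growth control genes around mTORC1, 12 of 18 were higher with a median of 0.05, and Ddit4 was the only member past the fold.

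Jun had the lowest ratio of the 8888 genes measured. This AP-1 subunit (ENSMUSG00000052684; chromosome 4, 95049036 to 95052222), an immediate early gene, was at 14.4 CPM in I173A cells (204 UMIs) and 41.1 CPM in WT cells (579 UMIs), a ratio of 0.35 (0.30 to 0.41). Its relatives were closer to 1: Fos was at 14.9 CPM in I173A and 12.9 CPM in WT cells (1.16, 0.94 to 1.42), Junb stood at a ratio of 0.89 and Jund at 0.88. The list of genes that respond to dissociation and other acute stress had 5 of 15 members higher and a median of -0.08. Apart from Jun, Socs3, a feedback inhibitor of cytokine signalling, was past the fold at 19.8 CPM in I173A and 30.2 CPM in WT cells (0.66, 0.56 to 0.76), and Dnajb1 and Egr1 stood at 0.97 (0.90 to 1.04) and 0.99 (0.93 to 1.06).

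Chaperone genes were lower in I173A as a group. Of 18 measured heat shock and chaperone genes 17 were lower and 1 higher, with a median log2 ratio of -0.24 against 0.02 over all genes. Hsph1, a co-chaperone of HSP70 (ENSMUSG00000029657; chromosome 5, 149616843 to 149636498), was at 31.1 CPM in I173A and 59.6 CPM in WT cells, a ratio of 0.52 (0.46 to 0.59), and was the only member past the fold. Hspa8, the constitutive HSP70, was at 1253 CPM in I173A and 1740.4 CPM in WT cells, a ratio of 0.72 (0.71 to 0.73). Stip1, which hands clients from HSP70 to HSP90, was at 81.3 and 109.6 CPM (0.74, 0.69 to 0.80). Fkbp4, a partner of HSP90, stood at 0.76, Hsp90aa1, the inducible HSP90, at 0.82, and Hsf1, the transcription factor of the heat shock response, at 0.94. Hspa4, at 158 CPM in I173A and 155 CPM in WT cells (1.01, 0.96 to 1.08), was the member above 1. Cells with at least 5 UMIs of 6 S phase genes were 10.5% of I173A and 15.3% of WT noncycling cells; without them 16 of 18 chaperone genes were lower and the median was -0.16. Chaperones of the endoplasmic reticulum had a median of -0.05 with 15 of 20 lower, and Hspa5 stood at 0.97.

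The promoter of Hsph1 is shown because this gene was the lowest chaperone and carries the binding letters of heat shock factors close to its start. The window holds 250 bases before and 50 after the start site that RefSeq lists first (GRCm38.p6, minus strand, chr5:149636287-149636586), and capitals mark matches to GAANNTTC or TTCNNGAA, the pairs of inverted 3-base units of a heat shock element, searched on both strands.
Hsph1 promoter: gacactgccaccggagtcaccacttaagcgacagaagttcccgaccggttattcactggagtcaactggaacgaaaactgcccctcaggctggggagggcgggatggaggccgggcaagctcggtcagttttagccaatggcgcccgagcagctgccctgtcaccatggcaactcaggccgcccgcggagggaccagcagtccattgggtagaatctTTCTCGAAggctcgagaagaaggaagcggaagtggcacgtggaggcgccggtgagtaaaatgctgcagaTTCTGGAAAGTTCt
GAANNTTC occurred in 7.86% and TTCNNGAA in 8.52% of all 32851 promoter windows. Of the 18 chaperone genes 14 had a window in the table, and 8 of these 14 (57.1%) held a pair, against 13.8% of the measured genes with a window. They were Cct2, Chordc1, Dnaja1, Dnajb4, Fkbp4, Hspd1, Hspe1 and Hsph1. A match is a run of letters and not a measured binding site. The list was made of heat shock and chaperone genes, so this share describes the list and not the difference between the genotypes. Whether members with a pair were lower than those without was not tested.

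The promoters of Cpt1a, Tsc22d3 and Ddit4, which were higher, and of Jun, which was lower, were also searched for TGTTCT, part of the glucocorticoid receptor's site (in 19.0% of all windows), GTAAACA, bound by FoxO factors (3.65%), AGGTCA, part of the site of PPAR and related nuclear receptors (16.3%), and TGANTCA, bound by AP-1 (7.81%), on both strands. Cpt1a is shown because it had the highest ratio after the class II genes and Cd74, in the window of GRCm38.p6 on the plus strand, chr19:3323051-3323350, with the match to AGGTCA, on the other strand, in capitals. This window lies inside the span of Cpt1a given above, and letters around the first base of that span were not searched.
Cpt1a promoter: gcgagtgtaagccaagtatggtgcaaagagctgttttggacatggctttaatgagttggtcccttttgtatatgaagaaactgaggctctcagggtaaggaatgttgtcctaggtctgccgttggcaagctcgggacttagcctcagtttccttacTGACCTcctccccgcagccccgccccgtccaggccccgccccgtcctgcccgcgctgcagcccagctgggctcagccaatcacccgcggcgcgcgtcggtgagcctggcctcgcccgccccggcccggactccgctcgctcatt
Of 3 start sites listed for Tsc22d3, 1 window held TGTTCT once, and no other match to these 4 motifs was found in the windows of the 4 genes. The Jun window held 1 match to GAANNTTC, which begins 128 bases before the start, and the windows of Cpt1a, Tsc22d3 and Ddit4 held no heat shock pair. The window of Slc25a20, which was also higher, was searched too and held no match to any of these motifs, AGGTCA included. These windows are short, and letters outside them were not searched. Only the letters given were searched. Other forms of these sites, such as longer forms of the AP-1 site, would be missed, so a window without a match can still hold a site.

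**Figure D2:**
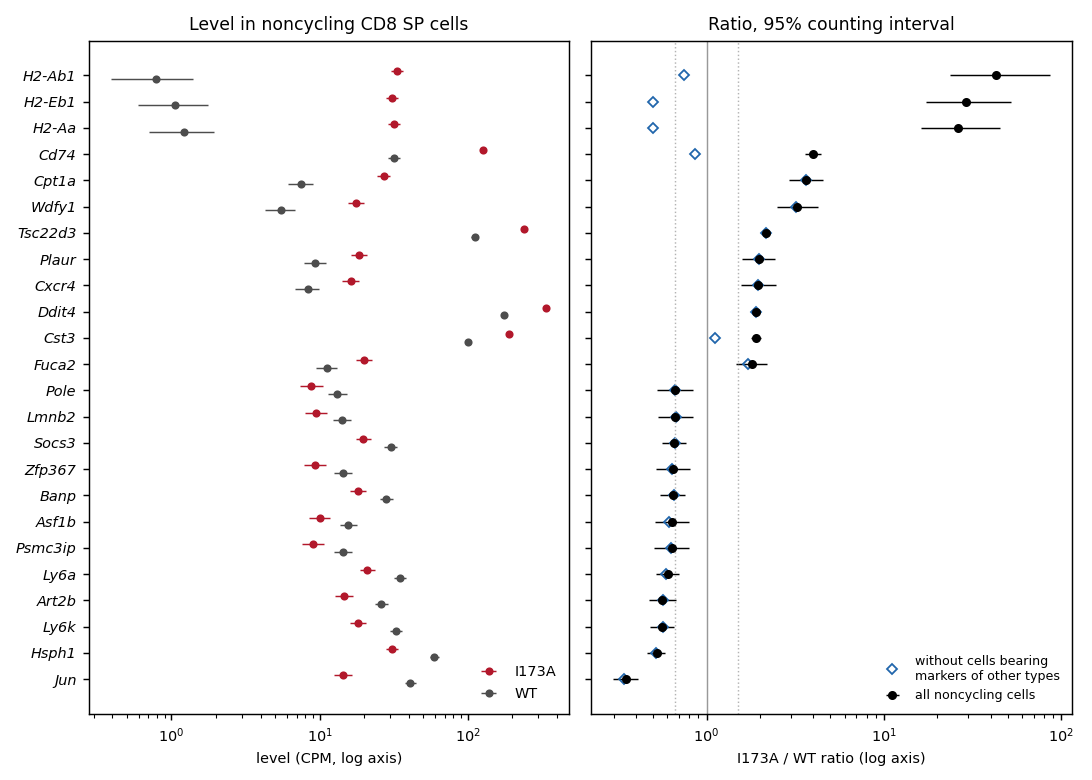
The 12 top and 12 bottom genes by ratio, all with 10 CPM or more and an interval that left out 1; left, CPM in I173A (red) and WT (grey) cells on a log axis; right, the ratio of I173A to WT on a log axis, with bars for 95% counting intervals, dotted lines at 1.5-fold and open diamonds for the ratio without cells that bear markers of other cell types. The diamonds of H2-Ab1, H2-Eb1, H2-Aa, Cd74 and Cst3 leave their circles, and those of the other 19 genes lie on or beside them.

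Of the other genes among the 12 highest, Wdfy1, an adaptor of endosomal Toll-like receptors, was at 17.7 CPM in I173A and 5.47 CPM in WT cells, a ratio of 3.24 (2.50 to 4.23). Plaur, the urokinase receptor, was at 18.4 and 9.37 CPM (1.96, 1.59 to 2.44), and Cxcr4, a receptor for the chemokine CXCL12 that thymocytes use early in their development, at 16.3 and 8.31 CPM (1.96, 1.56 to 2.47). Fuca2, a fucosidase, was at 20.02 CPM in I173A and 11.1 CPM in WT cells (1.80, 1.47 to 2.20).

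The 3 highest ratios came from a handful of cells. The MHC class II genes H2-Ab1, H2-Eb1 and H2-Aa were at 33.4, 30.8 and 31.6 CPM in I173A cells and at 0.78, 1.07 and 1.21 CPM in WT cells, and Cd74, which chaperones class II, was at 127 and 32.0 CPM (ratio 3.99). Cells with at least 5 summed UMIs of 10 markers of B cells, macrophages and dendritic cells numbered 15 of 2609 in I173A (0.57%) and 8 of 2503 in WT (0.32%). The class II genes and Cst3 were among the 10 markers, so these cells were partly chosen by them. The 15 I173A cells held 99.4% of H2-Ab1, 99.5% of H2-Eb1, 99.6% of H2-Aa, 80.3% of Cd74 and 42.7% of Cst3 UMIs. Without these cells the ratios were 0.75, 0.50, 0.50 and 0.86, and that of Cst3, a protease inhibitor that dendritic cells express highly, was 1.11 instead of 1.89. WT cells had 11, 15 and 17 UMIs of H2-Ab1, H2-Eb1 and H2-Aa in all, of which the 8 WT cells held 63.6%, 73.3% and 76.5%. The class II ratios without these cells thus rest on few UMIs of genes that chose the cells. Their side of 1 cannot be read. Among defining markers of these cells in I173A and WT, Siglech had 11 and 0 UMIs, Csf1r 2 and 0, Lyz2 6 and 13, Cd79a 9 and 12, and Ms4a1 0 and 1. Without the same cells 45 of the 54 genes 1.5-fold higher and all 30 genes 1.5-fold lower were still past the fold.

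Genes that report TCR signals did not move together. Of 28 measured response genes 17 were higher in I173A and 11 lower, with a median log2 ratio of 0.09, whereas 24 of 28 were higher in the whole gate (where 55.3% of all genes were) with a median of 0.35. The Nr4a genes stood at the upper end. Nr4a1 was at 66.0 CPM in I173A and 48.9 CPM in WT cells (1.35, 1.22 to 1.49), Nr4a2 at 9.16 and 5.68 CPM (1.61, 1.21 to 2.16) and Nr4a3 at 9.59 and 7.10 CPM (1.35, 1.04 to 1.77), although Nr4a3 was below 1 (0.94) when cells were thinned to 2000 UMIs each. Their UMIs were concentrated: 10 cells held 29.6% of the I173A and 32.1% of the WT Nr4a1 UMIs. Cd5 was at 245 CPM in I173A and 223 CPM in WT cells (1.10, 1.05 to 1.15), and Cd6 at 199.9 and 168 CPM (1.19, 1.13 to 1.26). At the lower end were Irf4, a transcription factor graded by TCR affinity, at 4.72 CPM in I173A and 7.60 CPM in WT cells (0.62, 0.45 to 0.85), Dusp6, a phosphatase of ERK, at 19.5 and 26.7 CPM (0.73, 0.62 to 0.85), and Cd69 at 122 and 164 CPM (0.75, 0.70 to 0.79). Without cells that bear S phase genes, 0 of 28 measured members were 1.5-fold lower, so Irf4 was not counted past the fold there. Egr1 and Egr2 were at 134 and 22.3 CPM in I173A and at 135 and 24.9 CPM in WT cells, with intervals of the ratio that include 1.

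Over 28 genes of the TCR complex, proximal kinases and adaptors the median was 0.02, that of all genes, and 0 members passed the fold. Cd3e, the gene that carries the substitution, was at 1558 CPM in I173A and 1464 CPM in WT cells (1.06, 1.04 to 1.08), and UMIs at its start do not show which allele they come from. Cd3g stood at 0.98 (0.96 to 1.00) and Lck, the kinase that phosphorylates the CD3 chains, at 824 and 922 CPM (0.89, 0.87 to 0.92), the lowest of the list. Ptpn22, a phosphatase that opposes it, was the highest at 108 and 88.5 CPM (1.22, 1.13 to 1.32). Markers of negative selection and agonist signals, which share 5 measured genes with the response list, had 10 of 12 members higher and a median of 0.20. Bbc3, which encodes the death protein PUMA, was the only member past the fold, at 13.7 CPM in I173A and 8.24 CPM in WT cells (1.66, 1.31 to 2.11). Pdcd1, the gene of PD-1, was at 12.1 and 10.6 CPM (1.15, 0.91 to 1.44), and the inhibitory list as a whole had a median of 0.03.

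**Figure D3:**
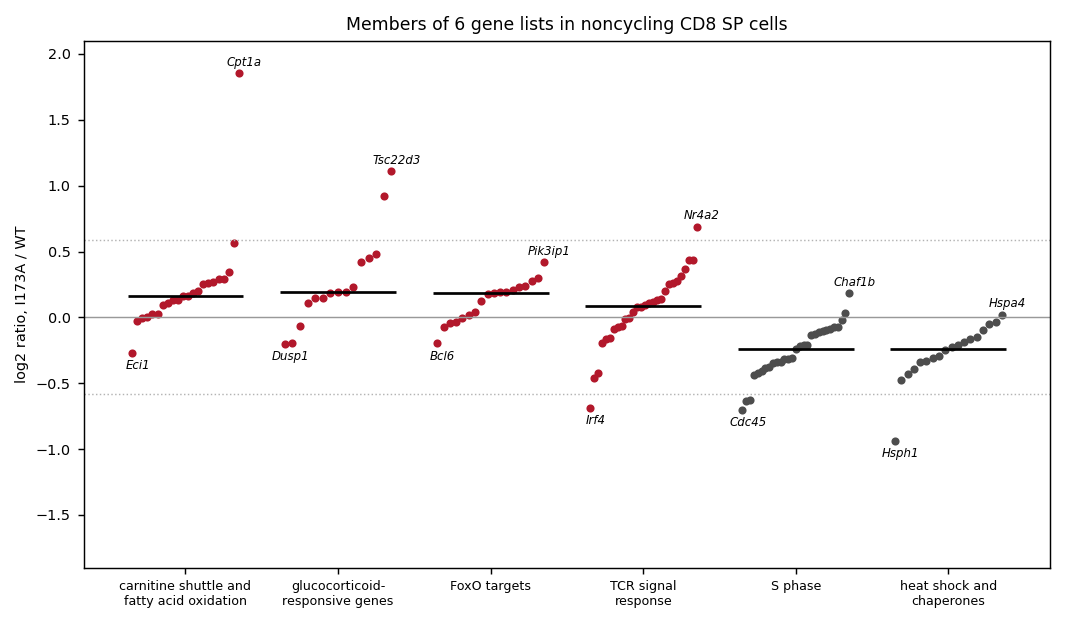
log2 ratio of I173A to WT for every measured member of 6 gene lists in noncycling CD8 SP cells (y axis), sorted within each list, red for the first 4 lists and grey for S phase and chaperones; black bars are medians and dotted lines mark 1.5-fold, and the lowest and highest member of each list are named. The points of heat shock and chaperones lie below 0 except Hspa4, those of carnitine shuttle and fatty acid oxidation mostly above it, and those of the TCR signal response spread to both sides.

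In the Bcl2 family and other death genes, 15 of 18 measured members were higher with a median of 0.10. Besides Bbc3 these included Bmf (1.26, 0.91 to 1.74) and Bcl2l11 (1.20), which promote death, and Bcl2, which prevents it, at 285 CPM in I173A and 236 CPM in WT cells (1.21, 1.15 to 1.26). Bcl2l1, the gene of BCL-XL, was at 11.6 and 12.6 CPM (0.92, 0.74 to 1.14). The p53 target list, which shares Bbc3, had a median of 0.06.

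Cytokine signalling genes had 17 of 23 members higher and a median of 0.11. Il2rb, a subunit of the interleukin 2 and 15 receptors, was at 142 CPM in I173A and 117 CPM in WT cells (1.21, 1.14 to 1.30). The STAT5 targets Cish and Pim1 were at 26.6 and 14.6 CPM in I173A and at 18.7 and 10.2 CPM in WT cells, ratios of 1.42 (1.21 to 1.67) and 1.44 (1.16 to 1.79), although Pim1 stood at 0.85 in the whole gate. Il10ra, a subunit of the interleukin 10 receptor, was at 8.04 and 3.12 CPM (2.57, 1.80 to 3.73), and Socs3 was the member at the other end.

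Maturation genes went both ways once cycling cells were dropped. Of 28 maturation and egress genes 14 were higher and 14 lower with a median of 0.00, whereas all 28 were higher in the whole gate with a median of 0.30. The interferon response list likewise went to 18 of 35 members higher and a median of 0.00 in noncycling cells, against 33 of 35 and 0.31 in the whole gate. Within the maturation list Itga4, an integrin subunit, was at 109 CPM in I173A and 84.6 CPM in WT cells (1.28, 1.19 to 1.39) and Gimap6, a lymphocyte GTPase, at 313 and 383 CPM (0.82, 0.78 to 0.85; 1.03 in the whole gate). The semimature list had a median of 0.01, with Cd24a at 19.7 and 15.8 CPM (1.2, 1.04 to 1.49; 0.47 in the whole gate) above 1, and Cd69 and Ccr9 below it. Ccr9 was at 254 CPM in I173A and 305 CPM in WT cells (0.83, 0.80 to 0.87), but at a ratio of 1.01 in the whole gate.

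Ly6k and Ly6a, both in the Ly6 cluster on chromosome 15, were at 18.3 and 21 CPM in I173A and at 32.7 and 34.9 CPM in WT cells, ratios of 0.56 (0.48 to 0.65) and 0.60 (0.52 to 0.70). Art2b, an ADP-ribosyltransferase on the T cell surface, was at 14.7 CPM in I173A and 26.2 CPM in WT cells (0.56, 0.47 to 0.67). H2-Q6, a nonclassical class I gene, was at 39.3 and 56.2 CPM (0.70, 0.63 to 0.78) and H2-Q7 at 297 and 332 CPM (0.89, 0.86 to 0.93; 1.10 in the whole gate). The H2-Q and Ly6 genes have close paralogs, and how reads were split between these is uncertain. In the MHC class I list 8 of 22 genes were higher (median -0.04). Cxcr6, a chemokine receptor of resident and cytotoxic T cells, was at 52.0 CPM in I173A and 75.9 CPM in WT cells (0.69, 0.62 to 0.75), the lowest of 18 migration genes, whose median was 0.02. Gpr83, an orphan receptor, was past the fold in the same list at 26.9 and 17.6 CPM (1.53, 1.30 to 1.80).

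Of 17 measured genes of the CD8 lineage 10 were higher, with a median of 0.04 and 0 past the fold. Runx3, its transcription factor, was at 124 CPM in I173A and 113 CPM in WT cells (1.09, 1.02 to 1.17; 0.98 with equal weight of early, middle and late cells), Nkg7 stood at 1.03 (1.00 to 1.06), and Cd8a at 0.87 (0.86 to 0.89). Cd7, a surface protein of T cells, was the highest but for Il2rb, at 427 and 353 CPM (1.21, 1.17 to 1.26). Of 6 measured CD4 lineage genes 4 were higher, with a median of 0.04.

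S phase genes stayed lower in I173A although mitotic cells had been dropped, with 27 of 29 lower and a median of -0.24. Cdc45, Cdc6 and Clspn, which act at replication origins and forks, were past the fold at ratios of 0.61 (0.46 to 0.82), 0.64 (0.47 to 0.87) and 0.65 (0.49 to 0.86), each under 10 CPM. The direction of Clspn turned (1.01) when the cells with at least 5 S phase UMIs were also dropped, and that of Cdc6 (1.53) when early, middle and late cells had equal weight. Asf1b, a histone chaperone, Psmc3ip, a recombination factor, Zfp367 and Pole, a DNA polymerase subunit, were among the 12 lowest, at ratios of 0.64, 0.63, 0.65 and 0.67. When the cells with at least 5 S phase UMIs were also dropped, the median was -0.06 and 0 of 22 measured S phase genes were past the fold. The G2/M list had a median of -0.03 with 9 of 33 genes measured. Top2a, a gene of the cycling rule, was among the 9, and the rule limited its UMIs.

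Lists of Myc and ribosome biogenesis genes, of the integrated stress response and of the rearranging DP stage had medians of 0.02, -0.11 and 0.13. In the first, Myc was at 153 CPM in I173A and 176 CPM in WT cells (0.87, 0.82 to 0.92; 1.06 with equal weight of early, middle and late cells). In the second, Phgdh, the entry enzyme of serine synthesis, was at 115 and 133 CPM (0.87, 0.81 to 0.93) and Atf4 at 54.6 and 47.6 CPM (1.15, 1.03 to 1.27).

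The ratios were also taken among cells of like maturity, split by their late share, the UMIs of 6 late genes (Klf2, S1pr1, Il7r, Ms4a4b, S100a10, Slfn1) over those plus 6 early genes (Ccr9, Cd24a, Itm2a, Tox, Sox4, Ldhb), at 33.3% and 66.7%. These are ranges of a score and not cell types. The early range held 130 of 2525 I173A cells (5.15%) and 108 of 2439 WT cells (4.43%), the middle range 481 (19.0%) and 518 (21.2%), and the late range 1914 (75.8%) and 1813 (74.3%). Within 0.05 of a cut lay 121 of the 481 and 159 of the 518 middle cells.

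Cpt1a had a ratio of 4.48 (2.60 to 8.14) in the middle range and 3.32 (2.60 to 4.27) in the late range; the early range held 21 I173A and 2 WT UMIs. Tsc22d3 was higher in the early (2.20, 1.46 to 3.40), middle (2.56, 2.17 to 3.03) and late range (2.09, 1.95 to 2.23), and Ddit4 likewise at 1.67 (1.29 to 2.18), 2.24 (1.98 to 2.52) and 1.84 (1.74 to 1.95). Jun stood at 0.32 (0.20 to 0.49) in the middle and 0.35 (0.29 to 0.42) in the late range, with 12 I173A and 10 WT UMIs in the early range. Hsph1 was lower in each range, at 0.50, 0.44 and 0.54 from early to late. Cd69 stood at 0.99 (0.74 to 1.33) in the early range, 0.88 (0.76 to 1.02) in the middle and 0.71 (0.66 to 0.76) in the late range. Ly6k, Ly6a and Art2b had their lowest ratios in the late range, at 0.50, 0.58 and 0.53, but the early range held 31 WT UMIs or fewer of each. FoxO targets, which include the range genes Klf2, S1pr1 and Il7r, had 6 of 17 members higher in the early range, with a median of -0.10. In the middle and late range 13 of 18 were higher, with medians of 0.27 and 0.12. Whether the ratios of these genes and of this list differ between ranges was not tested.

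**Figure D4:**
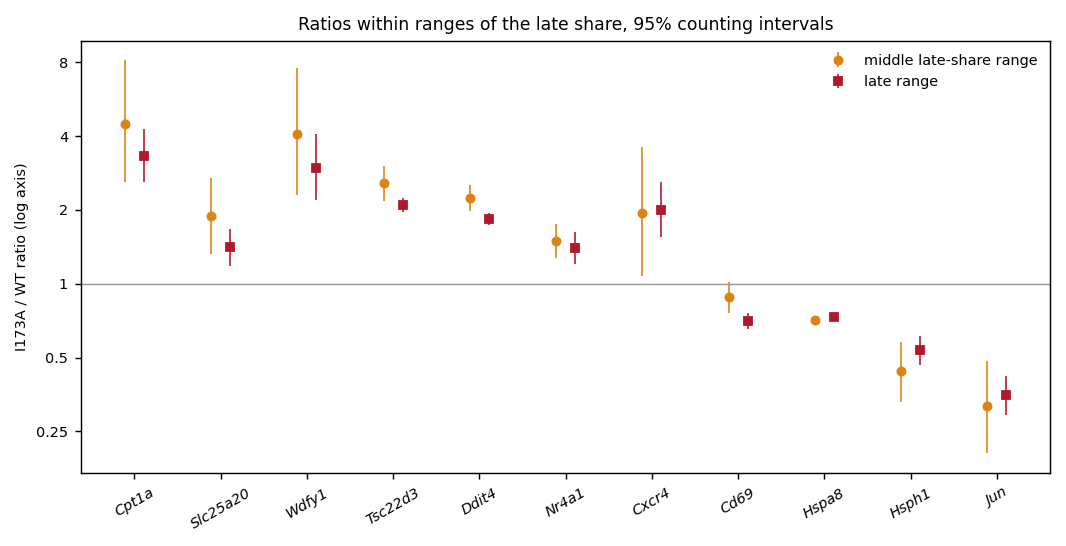
Ratio of I173A to WT on a log axis for 11 genes in the middle (orange circles) and late (red squares) range of the late share; bars are 95% counting intervals. Cpt1a, Slc25a20, Wdfy1, Tsc22d3, Ddit4, Nr4a1 and Cxcr4 lie above 1 in both ranges and Hspa8, Hsph1 and Jun below 1 in both.

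The CD4 SP and DP gates, each with its own I173A and WT cells and selected by the same rule, showed where the CD8 SP cells were alike or unlike. In noncycling cells 82 (0.898%) and 37 (0.405%) of 9136 genes were at least 1.5-fold higher and lower in CD4 SP, and 189 (2.02%) and 76 (0.811%) of 9367 in DP. Of the 54 genes at least 1.5-fold higher in CD8 SP cells, 46 were above 1 in CD4 SP and 43 in DP, where 61.7% and 54.4% of all measured genes were. Of the 30 lower genes, 27 were below 1 in CD4 SP and 17 in DP. Set against the same shares of all genes above 1, 61.7% and 54.4%, the DP count was not far from that over all genes. These counts include genes under 5 CPM there: 42 and 37 of the 54, and 19 and 22 of the 30, were measured in CD4 SP and DP. Cpt1a had a ratio of 4.61 (3.88 to 5.50) in CD4 SP and 6.80 (5.01 to 9.41) in DP; the CD8 SP ratio was 0.78 times the first (0.60 to 1.03) and 0.53 times the second (0.37 to 0.77). Tsc22d3 stood at 2.25 in CD4 SP and 1.88 in DP, and Ddit4 at 2.15 and 1.46. Jun stood at 0.37 in CD4 SP and 0.38 in DP, and the CD8 SP ratio over these was 0.96 (0.77 to 1.18) and 0.92 (0.75 to 1.13). The heat shock list had 17 of 18 members lower in both other gates, with medians of -0.23 in CD4 SP and -0.13 in DP, and fatty acid oxidation had medians of 0.18 and 0.14. FoxO targets had 12 of 19 members higher in CD4 SP (median 0.04) and 8 of 18 in DP (median -0.01).

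Other genes stood apart between the gates, and where the CD8 SP ratio over another gate's ratio is given here, its interval left out 1. Cd69 stood at 0.97 in CD4 SP and 0.97 in DP, so that the CD8 SP ratio was 0.77 times each (0.71 to 0.83 and 0.67 to 0.88). Ccr9 was higher in I173A in CD4 SP (1.29, 1.24 to 1.34) and lower in CD8 SP, and the CD8 SP ratio was 0.65 times the other (0.61 to 0.69). Cd8a gave 1.44 in CD4 SP, where it was at 42.3 CPM in I173A and 29.5 CPM in WT cells, and 0.99 in DP. Dusp6 stood at 1.05 in CD4 SP, and the CD8 SP ratio was 0.69 times this (0.58 to 0.83). Pdcd1 stood at 1.63 in CD4 SP, with the CD8 SP ratio 0.70 times this (0.54 to 0.91). Bcl2 stood at 1.05 in CD4 SP and 0.86 in DP, and the CD8 SP ratio was 1.15 (1.08 to 1.22) and 1.40 (1.17 to 1.67) times these. The interferon response list was lower in I173A in 32 of 34 members in CD4 SP, with a median of -0.25, although 61.7% of all genes were higher there, against 17 of 35 and 0.00 in CD8 SP. These intervals cover counting error only and count each UMI as independent, and the gates are 1 sample per genotype each. Whether the gates differ was not tested.

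**Figure D5:**
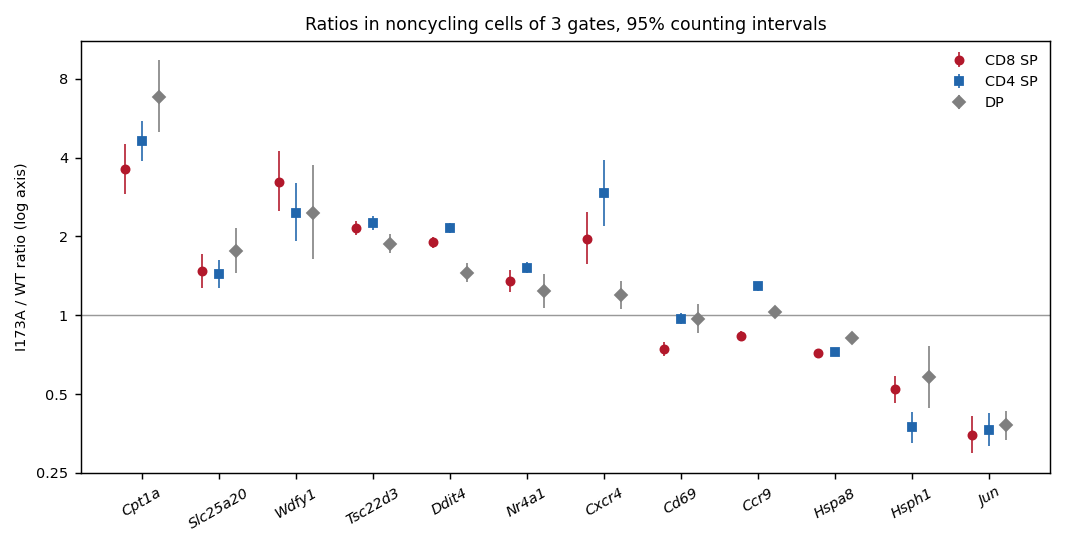
Ratio of I173A to WT on a log axis for 12 genes in noncycling cells of the CD8 SP (red circles), CD4 SP (blue squares) and DP (grey diamonds) gates; bars are 95% counting intervals. Cpt1a, Slc25a20, Wdfy1, Tsc22d3 and Ddit4 lie above 1 in all 3 gates and Hspa8, Hsph1 and Jun below 1 in all 3, whereas Ccr9 lies below 1 in CD8 SP and above 1 in CD4 SP.

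The choice of cells did not use the TCR chains. A productive TRA (α) chain was found in 83.6% of I173A cells (82.1% to 84.96%) and 85.5% of WT cells (84.1% to 86.9%), and a productive TRB (β) chain in 93.6% (92.5% to 94.5%) and 94.3% (93.3% to 95.2%). Cells with 2 or more TRA chains were 12.9% of I173A (11.5% to 14.4%) and 13.5% of WT cells with a TRA chain (12.1% to 15.1%). TRAJ segments with numbers up to 20, at the end reached by repeated rearrangement, made up 24.9% of I173A chains (23.2% to 26.7%) and 25.8% of WT chains (24.1% to 27.6%), and those over 40 made up 24.7% and 23.2%. The mean length of the TRA CDR3 was 13.7 residues in both genotypes, and that of the TRB CDR3 13.9 in I173A and 13.8 in WT cells. Both chains were found in 2151 I173A and 2099 WT cells with 2149 and 2095 distinct pairs. No pair occurred in both genotypes, and the largest was seen in 2 cells.

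Over 122 V, J and C segments with at least 40 chains in all, ratios of usage ran between 0.56 and 1.78. TRBV13-3 was used by 176 of 2566 I173A and 132 of 2474 WT TRB chains, a ratio of 1.29 (1.02 to 1.62). TRBJ2-7 was used by 432 and 492 chains (0.85, 0.74 to 0.97). TRAV4-3 had 22 of 2461 I173A and 39 of 2431 WT TRA chains (0.56, 0.31 to 0.96), and TRAV7-3 had 40 and 23 (1.72, 1.00 to 3.01). TRBJ1-5 had 90 I173A and 62 WT TRB chains (1.4, 1.00 to 1.97). These 5 were named after their values were seen, because their intervals left out 1, and among 122 segments some intervals leave out 1 by counting error alone. In the RNA library, Trav13-4-dv7, which is not among the 122 segments, was at 11.6 CPM in I173A and 3.62 CPM in WT cells (3.19, 2.32 to 4.46). Trav16 was at 25.5 and 16.8 CPM (1.52, 1.28 to 1.79) and Trav6-5 at 11.5 and 7.60 CPM (1.51, 1.18 to 1.95). These segment genes were also named after their values were seen.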

How the data were processed

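Thymocytes of 3 sorted gates were measured by 10x single-cell RNA, hashtag and TCR sequencing. The authors deposited raw UMI counts per gene, hashtag and barcode, and counts of UMIs per TCR contig. Cell Ranger 6.0.1 and builds mm10 and GRCm38 are named per the submitters' processing notes, while the deposited matrix headers give software version 3.1.0. Hashtags were assigned to genotypes per the labels.

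Cells were filtered as described, with no doublet caller beyond the removal of barcodes with several hashtags, and counts were summed per genotype and scaled to 1000000 UMIs over all genes. Intervals of levels are exact Poisson intervals, those of ratios exact conditional intervals for 2 Poisson counts, those of shares Clopper-Pearson intervals, and those of a ratio over another gate's ratio normal intervals on the log scale, all at 95%. With 1 sample per genotype no test was run, and counting of cells was not used as replication. A floor of 3 counts is 0.211 CPM in I173A and 0.213 CPM in WT cells. Python 3.11.15, NumPy 2.4.6, pandas 2.3.3, SciPy 1.17.1 and matplotlib 3.10.9 were used, and the computation was tested on simulated data.

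The named genes were the 12 top and 12 bottom by ratio, at 10 CPM or more and with an interval that left out 1 (without receptor segment, mitochondrial, ribosomal, haemoglobin and clone-named genes), 40 further genes of these pathways, and up to 3 at each end of each of 39 gene lists. Il10ra and some list members (Acads, Acadvl, Hadh, Txnip, Nr3c1, Junb, Jund, Fkbp4, Hsp90aa1, Hsf1, Hspa5, Bcl2l11) were named after their values were seen. The members and lists were chosen with earlier results of these data known. Promoter windows are from RefSeq, build GRCm38.p6, in which 6997 of the 8888 measured genes had a window. TCR tables of the CD4 SP and DP gates were not used here, and some genes are not reported here.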

Additional observations from a re-analysis of the deposited data

Results flagged for a closer look

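The ratio of I173A to WT for Cd74, the class II chaperone, was 3.99 in CD8 SP cells and 0.87 in CD4 SP cells, and so lay on opposite sides of 1 in these gates. The 15 I173A cells with markers of other cell types held 80.3% of the Cd74 UMIs in CD8 SP cells, against 8.22% in the 8 such WT cells, and without them the ratio was 0.86. Cst3 had a ratio of 1.89 in CD8 SP cells and 0.90 in DP cells. The same cells held 42.7% of the Cst3 UMIs in I173A and 1.97% in WT, and without them the ratio was 1.11. The difference between the gates was not tested, because each gate holds 1 sample per genotype.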

How the results depend on the processing

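No paired analysis was possible because each genotype is 1 sample in the gate and no test was run. The counts of genes past the fold moved by over 1.5 times with the choices given here, and by less under the stricter hashtag call and cell filters, the recentred ratios, the mean over cells, and without S phase, immature or other-type cells or cells with 2 cycling UMIs. Against 54 higher and 30 lower, they were 127 and 441 in the whole gate, 93 and 49 with totals without mitochondrial and ribosomal protein genes, 157 and 90 with cells thinned to 2000 UMIs, 283 and 137 with equal weight of the 3 late-share ranges, 8 and 8 with a floor of 20 CPM, 265 and 170 with a floor of 1 CPM, 383 and 214 with a lower fold, and 11 and 2 with a fold of 2. Dropping cells at 10 cycling UMIs gave 51 lower genes of 8915. Thinning left out 103 I173A and 86 WT cells.

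In the whole gate the list medians (log2) were 0.35 for TCR signal response, 0.18 for the TCR complex, 0.29 for inhibitory genes, 0.32 for FoxO targets, -0.35 for cholesterol synthesis, 0.20 for sterol efflux, -0.11 for glycolysis, 0.30 for maturation, 0.28 for the CD8 lineage, 0.36 for the CD4 lineage, -1.31 for the rearranging DP stage, -0.70 for S phase, -0.77 for G2/M, 0.11 for acute stress, -0.37 for heat shock, 0.31 for interferon response, 0.17 for MHC class I, 0.24 for cytokine receptors, -0.20 for Myc and ribosome biogenesis, -0.16 for the respiratory chain and 0.30 for chemokine receptors. With S phase cells also dropped they were 0.0700 for glycolysis, -0.0608 for S phase, -0.11 for interferon response, 0.11 for Myc and ribosome biogenesis and 0.0176 for the respiratory chain, which changed side. With equal ranges they were 0.0770 for the TCR complex, 0.0425 for lipid catabolism regulators and 0.0557 for endoplasmic reticulum chaperones, which changed side. Thinning gave -0.0899 for lipid catabolism regulators, dropping at 10 cycling UMIs -0.22 for the rearranging DP stage and -0.15 for G2/M, and a floor of 1 CPM -0.17 for G2/M. The causes were not tested.

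Ratios that changed side were, in the whole gate, those of Abcg1 (1.01), Ccr9 (1.01), Cd24a (0.47), Fkbp5 (0.78), Gimap6 (1.03), H2-Q7 (1.10) and Pim1 (0.85). With equal ranges they were those of Cdc6 (1.53), Eci1 (1.04), Myc (1.06) and Runx3 (0.98). Without cells bearing markers of other types they were Cd74 (0.86), H2-Aa (0.50), H2-Ab1 (0.75) and H2-Eb1 (0.50). The class II genes among these then rest on few UMIs, so that their side of 1 cannot be read. Clspn stood at 1.01 with S phase cells dropped, Cd24a at 0.985 with cells dropped at 10 cycling UMIs, and Nr4a3 at 0.94 with cells thinned.

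With contigs of 3 or more UMIs a TRA chain was found in 77.5% of I173A and 78.8% of WT cells, both chains in 75.5% and 76.4%, and 2 or more TRA chains in 11.2% of I173A cells with one. In the whole gate a TRA chain was found in 78.0% and both chains in 76.5% of WT cells. The median of all genes stayed between 0.00 and 0.04 under each alternative scaling and choice of cells. Low genes rest on few UMIs, and ratios close to 1 were not detectable for them.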

Other observations

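The labels give no genotype for hashtag 5, and its cells are described here as 1 further sample. By the same rule it gave 2323 noncycling cells with 13520053 UMIs. Cpt1a was at 5.84 CPM and Wdfy1 at 8.88 CPM in these cells. Tsc22d3 was at 126 CPM and Ddit4 at 225 CPM. Jun was at 36.3 CPM, Hsph1 at 42.0 CPM, Cd69 at 149 CPM and Nr4a1 at 57.8 CPM. Socs3 was at 20.1 CPM, Fuca2 at 16.0 CPM, Ly6k at 32.8 CPM and Art2b at 24.6 CPM.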
